A study of Mus musculus with 8 samples.

Results

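The genes described here are 10 immediate early and AP-1 genes, namely Fos, Fosb, Fosl2, Jun, Junb, Jund, Atf3, Egr1, Ier2 and Btg2. They were chosen by symbol, and each matched 1 of the 37991 gene identifiers of the count table. Their RNA was counted in Flt3- LSK cells of C57BL/6J mice, bone marrow cells enriched for blood stem cells and multipotent progenitors. The Mut group is labelled as Runx1 deficient, and the WT group as wild type, which the design text gives as Runx1f/f. Runx1 encodes a transcription factor of blood development. The labels name neither the driver of the deletion, nor the deleted part of the gene, nor the age of the mice. Every sample of both groups was 24000 sorted cells with ERCC spike-in RNA added to its purified RNA. Each group had 2 libraries of polyA-selected RNA (mRNA libraries) and 2 of total RNA, which makes 8 libraries in 4 groups.

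Immediate early genes are switched on within minutes of a stimulus, without the need for new protein. MAP kinases and calcium signals act on factors already bound to their promoters, and many of the products are transcription factors that in turn switch on later genes. FOS and JUN proteins pair through leucine zippers to form the AP-1 factor. The transcripts are short-lived, and cell sorting and tissue dissociation are known to induce them.

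Runx1 itself goes against the label. It stood at 749 and 941 CPM in Mut-labelled mRNA libraries, against 200 and 208 CPM in WT mRNA libraries (log2 fold change 2.05, edgeR adjusted p = 0.00753). CPM is a gene's count relative to its library's total, with TMM scaling within 1 kind of library. The counts cover all exons and would not show the loss of 1 part, so the groups are called Mut-labelled and WT, and every direction rests on the labels. Gene counts were 35096252 to 37924699 per mRNA library and 967694 to 1218437 per total RNA library, where 93.3 to 94.5% of counts were rRNA. Of the gate's markers, Kit stood at 1027 ± 103 CPM in Mut-labelled and 887 ± 5.04 CPM in WT mRNA libraries (SD, n = 2 each). Ly6a, the Sca-1 gene, stood at 29.3 ± 4.54 and 31.1 ± 10.5 CPM in Mut-labelled and WT mRNA libraries (SD, n = 2 each). Flt3, against which the cells were sorted, was still present at 72.4 ± 21.4 CPM in Mut-labelled and 136 ± 26.9 CPM in WT mRNA libraries (SD, n = 2 each). Of 6 gate genes, 3 (Kit, Slamf1 and Cd48) had both Mut-labelled mRNA libraries above both WT ones, as had 21.4% of all genes. For 1 (Flt3) both lay below, as for 23.1%. Cd48, a surface marker used to divide this gate, was the 1 of 6 called, against 3.64% of all genes. It had 181 and 179 CPM in Mut-labelled and 47.6 and 42.6 CPM in WT mRNA libraries (3.99-fold higher, edgeR adjusted p = 0.00451). Cd48 was also the 1 of 6 called in total RNA libraries (log2 fold change 2.56, edgeR adjusted p = 3.42e-06), against 4.22% of all genes. Its part in the values of the 10 genes was not tested.

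The regions just upstream of 4 of the genes are shown because Jun and Btg2 carried the difference between genotypes in total RNA and Fos and Fosb the widest difference between WT libraries. Each run is the 250 bases before the gene's start in RefSeq on build GRCm38.p6, written 5′ to 3′ on the strand of the gene, with motif matches in capitals. Fos lies on the plus strand at chr12:85473640-85473889, and the other 3 on the minus strand, Fosb at chr7:19310046-19310295, Jun at chr4:95052223-95052472 and Btg2 at chr1:134079156-134079405.
Fos: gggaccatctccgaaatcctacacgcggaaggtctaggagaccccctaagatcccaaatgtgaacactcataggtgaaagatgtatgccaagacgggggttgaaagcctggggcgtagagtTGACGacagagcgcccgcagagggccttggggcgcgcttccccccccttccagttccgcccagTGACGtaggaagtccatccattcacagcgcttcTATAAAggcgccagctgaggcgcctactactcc
Fosb: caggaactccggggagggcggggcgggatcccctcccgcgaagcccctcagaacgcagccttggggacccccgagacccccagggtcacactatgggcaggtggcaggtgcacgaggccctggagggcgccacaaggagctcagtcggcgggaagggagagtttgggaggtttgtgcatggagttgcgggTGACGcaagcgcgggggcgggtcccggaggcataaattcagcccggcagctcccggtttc
Jun: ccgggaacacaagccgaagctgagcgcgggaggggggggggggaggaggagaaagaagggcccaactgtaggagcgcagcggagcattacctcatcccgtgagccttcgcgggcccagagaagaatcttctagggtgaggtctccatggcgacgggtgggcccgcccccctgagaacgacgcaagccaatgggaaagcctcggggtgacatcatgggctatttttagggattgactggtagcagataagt
Btg2: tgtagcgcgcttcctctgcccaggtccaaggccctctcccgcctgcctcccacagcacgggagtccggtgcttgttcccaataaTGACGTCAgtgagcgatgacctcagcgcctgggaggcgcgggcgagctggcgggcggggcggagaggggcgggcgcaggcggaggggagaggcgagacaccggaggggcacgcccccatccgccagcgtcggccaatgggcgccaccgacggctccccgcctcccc

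The capitals mark the cyclic AMP response element (CRE, TGACGTCA), its core TGACG and the box TATAAA, searched on both strands, and each CRE also holds that core on both strands. The RefSeq promoters of 8 of the 10 genes were searched. Egr1 and Ier2 were not searched, so the counts below say nothing of them. Btg2 alone of these 8 held the full CRE, which 1.55% of 32851 promoters of the same length held. The core TGACG was present in Btg2, Atf3, Fosb, Junb and Fos, 5 of 8, against 17.8% of all promoters. TATAAA was present in Fos alone, against 12.4% of all promoters. The core letters of RUNX sites, TGTGGT, were in 0 of the 8 windows (14.0% of all promoters), as were the AP-1 site TGANTCA (6.75%) and the CArG box bound by serum response factor (1.47%). These are matches of letters in 1 window and not measured sites.

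The genes are compact. Jun, Jund and Ier2 had 1 exon, as had 2.52% of 13747 protein-coding genes tested in the mRNA libraries, and 8 of the 10 spanned at most 12000 bases, as did 29.3% of those genes. Atf3 (47744 bases) and Fosl2 (22042 bases) were the longer ones, next to a median span of 23686 bases. The pentamer ATTTA, found in AU-rich elements of short-lived transcripts, occurred 4.91 times per kilobase in the 3′ untranslated region of Fos, 4.12 times in that of Junb and 3.24 times in that of Jun. The median over 13606 genes was 1.19 per kilobase, and Fosb (0.43 per kilobase) and Ier2 (0 copies) lay below it. Egr1, Fosl2 and Jund held 1.6, 1.7 and 1.9 per kilobase, and Btg2 and Atf3 2.3 and 2.5. That search was added after the counts had been seen. Exons of Jund share 877 bases (52.6% of its length) with the antisense gene Gm11175, which had 0 counts in every library. Jun shares 7.28% of its length with the antisense gene Junos (0 to 36 counts per library) and Junb 7.52% with Prdx2. The use of strand in counting is not given in the sources used here, so the values of these 3 genes are uncertain by such shared reads.

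Most of the 10 genes were abundant. Per kilobase of exon and averaged over the 4 mRNA libraries, Fos was the most abundant of them at 323 CPM per kb, rank 101 of 16293 genes. Jun followed at 221 CPM per kb. Junb, Ier2 and Jund lay together at 162, 161 and 158 CPM per kb, closer to each other than the spread between the libraries of any of the 3. Egr1 (61.6), Fosb (51.0) and Btg2 (29.6 CPM per kb) were lower, and Egr1 and Fosb differed by less than their spread between WT libraries. Fosl2 (4.61 CPM per kb) and Atf3 (1.09 CPM per kb) were lowest, with 44.2 and 23.5% of genes below them. In total RNA the 3 leading levels were those of Jund (270 CPM per kb), Fos (240 CPM per kb) and Ier2 (234 CPM per kb).

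**Figure D1:**
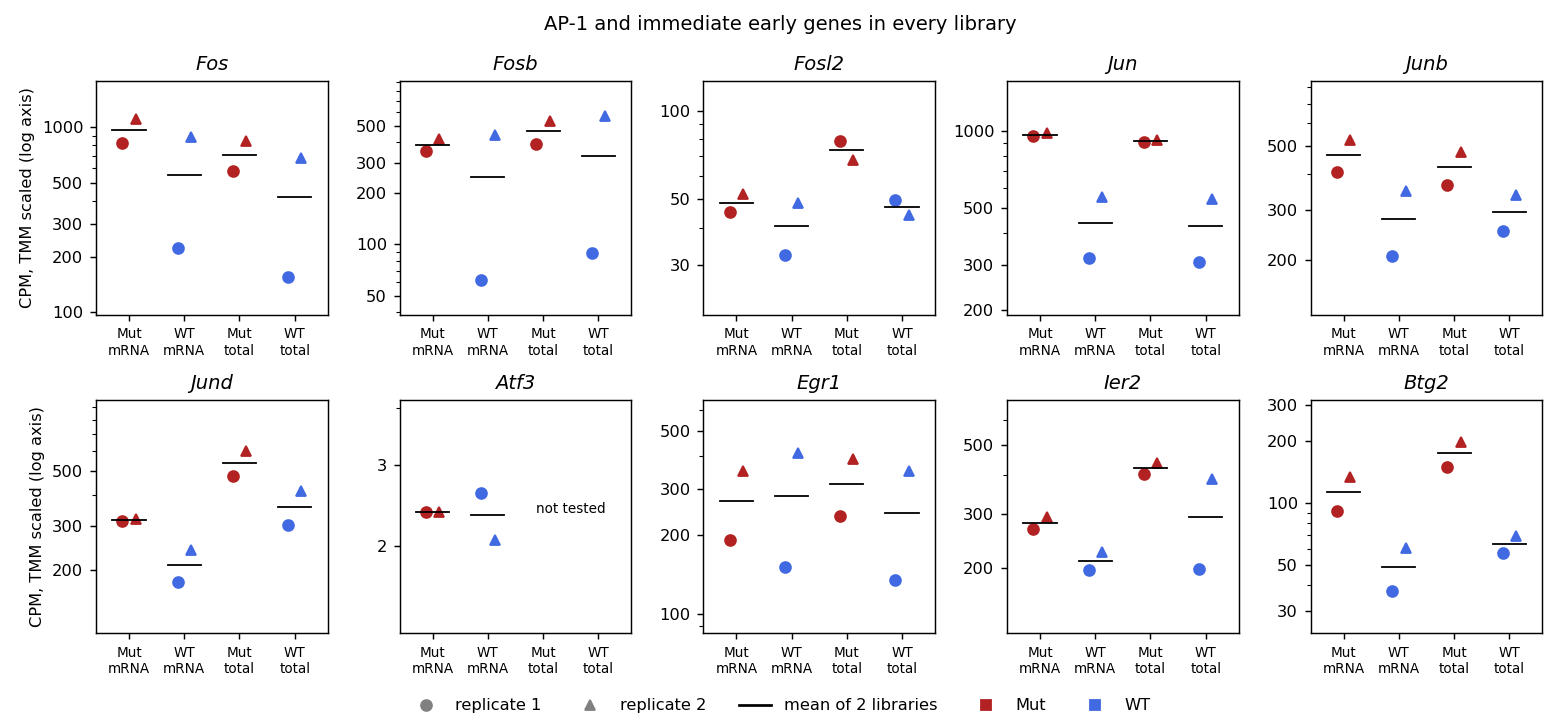
Level of each of the 10 genes in every library, as CPM after TMM scaling within each kind of library (log axis, 1 range per panel). Red marks Mut-labelled and blue WT libraries, circles replicate 1 and triangles replicate 2, and lines the mean of 2 libraries. WT replicate 1 holds the lowest value of Fos, Fosb, Jun, Junb, Jund, Egr1, Ier2 and Btg2 within each kind of library.

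In the mRNA libraries none of the 10 genes passed the test between genotypes, although 9 of 10 had a positive log2 fold change of Mut-labelled over WT, and under ERCC scaling 6 of 10 did. Their median was 0.61, next to -0.01 over all 17128 genes tested. At an adjusted p under 0.05, edgeR called 0 of the 10 genes, against 3.64% of all genes (1.75% higher and 1.89% lower). At an unadjusted p under 0.05 it had 5 of 10, against 15.7% of all genes. For 5 of 10 both Mut-labelled libraries lay above both WT libraries, as for 21.4% of all genes, and for 0 of 10 below, as for 23.1%. DESeq2 called 3 of the 10, Jun, Btg2 and Jund (adjusted p = 1.66e-04, 6.36e-04 and 0.028), against 9.43% of all genes. In data simulated for this comparison (16592 genes tested), 100 genes each were changed at a log2 fold of 1 and 2. The changed genes had a mean above 10 CPM, and edgeR recovered 47 and 98% of them. These shares need not hold for Atf3, which lies below that level. They need not hold either for genes as uneven between replicates as Fos, Fosb and Egr1.

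Among the FOS proteins, which need a partner to bind DNA, Fos had 825 and 1112 CPM in Mut-labelled replicates 1 and 2, against 222 and 885 CPM in WT replicates 1 and 2. The groups overlapped, and 1 WT library stood far below the other 3 libraries (log2 fold change 0.81, SE 0.60, edgeR adjusted p = 0.654). Fosb, whose product shares the FOS zipper, had 356 and 416 CPM in Mut-labelled and 61.6 and 439 CPM in WT libraries. Here the lowest and the highest library were both WT (log2 fold change 0.62, SE 0.79, edgeR adjusted p = 0.827). Fosl2, which encodes the FOS-related FRA-2, had 45.3 and 52.3 CPM in Mut-labelled and 32.5 and 48.5 CPM in WT libraries, and the groups overlapped (log2 fold change 0.27, SE 0.23, edgeR adjusted p = 0.702).

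The JUN genes, whose products can also pair with each other, showed no overlap between the groups in the mRNA libraries. Jun had 960 and 981 CPM in Mut-labelled and 320 and 555 CPM in WT libraries. The Mut-labelled libraries were 1.02-fold apart, and the WT libraries were 1.73-fold apart (log2 fold change 1.15, SE 0.28, edgeR adjusted p = 0.103). Junb, often a brake on JUN, had 407 and 526 CPM in Mut-labelled and 206 and 349 CPM in WT libraries (log2 fold change 0.75, SE 0.28, edgeR adjusted p = 0.274). Jund, the JUN gene with the steadiest level in resting cells, had 316 and 320 CPM in Mut-labelled and 179 and 241 CPM in WT libraries (log2 fold change 0.59, SE 0.18, edgeR adjusted p = 0.167). None of these differences passed with edgeR. Atf3, a stress-induced factor that can pair with JUN, was scarce, with 2.37 and 2.38 CPM in Mut-labelled and 2.61 and 2.07 CPM in WT libraries (log2 fold change 0.02, SE 0.36, edgeR adjusted p = 0.991).

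Outside AP-1, Egr1, a zinc finger factor induced through serum response elements, had 191 and 351 CPM in Mut-labelled and 151 and 411 CPM in WT libraries. Its WT libraries enclosed both Mut-labelled ones (log2 fold change -0.05, SE 0.50, edgeR adjusted p = 0.983). Ier2, an immediate early gene for a nuclear protein, had 267 and 292 CPM in Mut-labelled and 198 and 225 CPM in WT libraries, without overlap (log2 fold change 0.40, SE 0.14, edgeR adjusted p = 0.233). Btg2, which encodes an antiproliferative protein that recruits mRNA deadenylases and is also a p53 target, had 91.7 and 134 CPM in Mut-labelled and 37.4 and 60.9 CPM in WT libraries. Both Mut-labelled libraries lay above both WT libraries, at the largest log2 fold change of the 10 genes (1.20, SE 0.29, edgeR adjusted p = 0.101).

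Jun and Btg2 rose in the Mut-labelled total RNA libraries, and under ERCC scaling neither passed, with log2 fold changes of 0.07 (edgeR adjusted p = 0.915) and 0.34 (0.593). Btg2 had 150 and 199 CPM in Mut-labelled and 57.5 and 69.3 CPM in WT libraries, which gave 1.47 on the log2 scale (SE 0.21, edgeR adjusted p = 1.59e-04). Jun had 904 and 921 CPM in Mut-labelled and 308 and 545 CPM in WT libraries, which gave 1.10 on the log2 scale (SE 0.20, edgeR adjusted p = 0.0021). Both remained called in each of the 4 fits without 1 library, while with DESeq2, which called 1.96% of genes, Btg2 was called (adjusted p = 2.06e-04) and Jun was not (0.203). These 2 are of 9 genes tested, against 4.22% of 10546 genes called in this comparison (2.54% higher and 1.68% lower). At an unadjusted p under 0.05 there were 6 of 9, against 14.8% of all genes. In total RNA libraries 9 of 9 log2 fold changes were positive, with a median of 0.59 (all genes 0.00), but under ERCC scaling 2 of 9. The total RNA libraries are further libraries of same-named samples, so they do not add samples to the mRNA comparison.

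The other 7 genes tested in total RNA did not pass. Fosl2 had 78.7 and 67.9 CPM in Mut-labelled and 49.7 and 44.2 CPM in WT libraries (log2 fold change 0.64, edgeR adjusted p = 0.184), and here its groups did not overlap. Jund had 477 and 603 CPM in Mut-labelled and 303 and 417 CPM in WT libraries (log2 fold change 0.59, edgeR adjusted p = 0.0776). Junb had 365 and 477 CPM in Mut-labelled and 252 and 336 CPM in WT libraries (log2 fold change 0.52, edgeR adjusted p = 0.133). For Ier2, with 402 and 436 CPM in Mut-labelled and 199 and 386 CPM in WT libraries, the groups also stood apart (log2 fold change 0.52, edgeR adjusted p = 0.244). Counting Jun and Btg2, 6 of 9 genes had both Mut-labelled libraries above both WT libraries, as had 22.5% of all genes. Fos, Fosb and Egr1 overlapped between the groups again. Fos had 582 and 841 CPM in Mut-labelled and 155 and 683 CPM in WT libraries, Fosb 392 and 534 against 88.6 and 572 CPM, and Egr1 236 and 392 against 135 and 351 CPM. Their log2 fold changes were 0.77, 0.49 and 0.38 (edgeR adjusted p = 0.342, 0.681 and 0.623). Atf3 had 8 and 18 counts in the Mut-labelled and 5 and 8 counts in the WT total RNA libraries and was not tested at that depth.

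**Figure D2:**
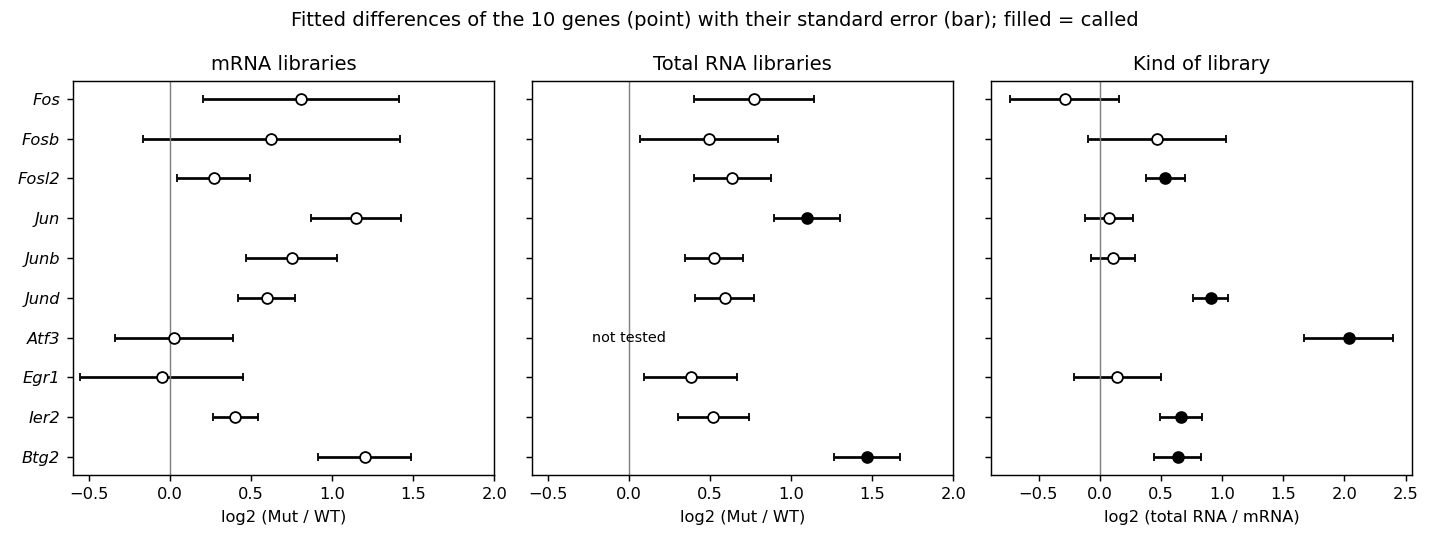
Fitted log2 differences of the 10 genes (points) with standard errors (bars), Mut-labelled over WT in mRNA libraries (left) and total RNA libraries (middle), and total RNA over mRNA libraries (right). Filled points have an edgeR adjusted p under 0.05: none on the left, Jun and Btg2 in the middle, and Fosl2, Jund, Atf3, Ier2 and Btg2 on the right.

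The widest differences lay between the WT libraries. WT replicate 2 exceeded WT replicate 1 by 7.13-fold for Fosb, 3.99-fold for Fos and 2.73-fold for Egr1 in mRNA libraries. In total RNA the same 3 genes stood 6.46-fold, 4.41-fold and 2.60-fold apart between the WT replicates. Of the 10376 genes with a mean of at least 10 CPM in mRNA libraries, 0.655% differed between the WT libraries as much as Fosb, 0.81% as much as Fos and 0.935% as much as Egr1. For Jun, Junb and Btg2 the shares were 2.02, 2.17 and 2.55%, whereas 49.1% of genes differed as much as Ier2. Between the Mut-labelled mRNA libraries the 10 genes were closer, at most 1.83-fold apart (Egr1), and replicate 2 was the higher one for all 10. Summed over the 10 genes, the level was 3461 and 4186 CPM in Mut-labelled replicates 1 and 2, against 1411 and 3217 CPM in WT replicates 1 and 2 of the mRNA libraries. WT replicate 1 thus stood apart, and only 2 WT libraries were present to compare.

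**Figure D3:**
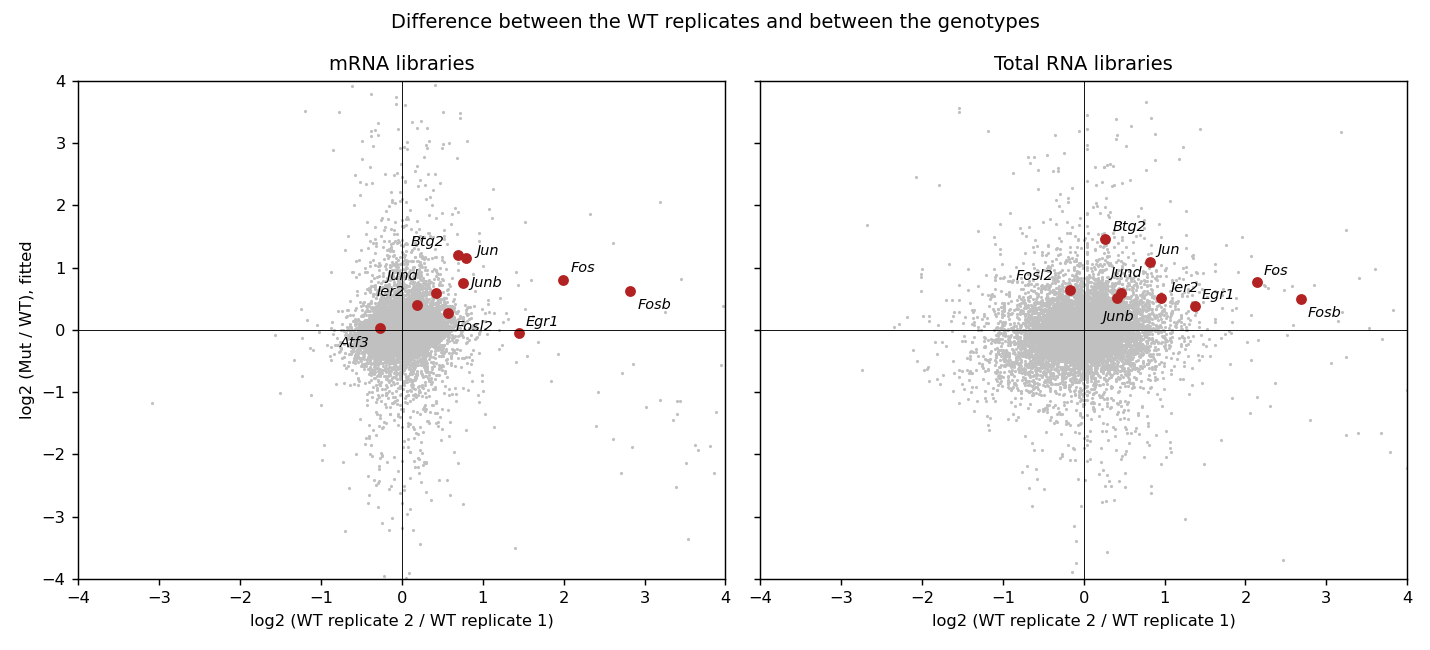
Log2 of WT replicate 2 over WT replicate 1 (x axis) against the fitted log2 of Mut-labelled over WT (y axis), in mRNA libraries (left) and total RNA libraries (right). Grey points are genes with a mean of at least 10 CPM, of which 71 and 19 lie outside the axes on the left and right, and red points are the named genes. Fos, Fosb and Egr1 lie far to the right in both panels, and Jun and Btg2 lie highest among the red points.

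The number of calls changed with the library left out. Without WT replicate 1 edgeR called 0 of the 10 genes in mRNA libraries, and the log2 fold changes of Fos, Fosb and Egr1 were 0.13, -0.19 and -0.60. Jun and Btg2 then stood at 0.80 (edgeR adjusted p = 0.372) and 0.89 (0.154). Without WT replicate 2, 5 of the 10 genes were called: Fosb (2.66, edgeR adjusted p = 7.27e-05), Fos (2.14, 0.00146), Jun (1.61, 0.00838), Btg2 (1.61, 0.00283) and Junb (1.19, 0.0427). Btg2 was also called without Mut-labelled replicate 1 (1.45, edgeR adjusted p = 0.026). In total RNA libraries the calls numbered 2 without WT replicate 1, 8 without WT replicate 2, 7 without Mut-labelled replicate 1 and 2 without Mut-labelled replicate 2. Jun there ranged from 0.75 without WT replicate 1 to 1.58 without WT replicate 2, and Btg2 from 1.25 without Mut-labelled replicate 2 to 1.66 without Mut-labelled replicate 1. In each of these fits the lone library of a group was taken to vary like the other group.

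**Figure D4:**
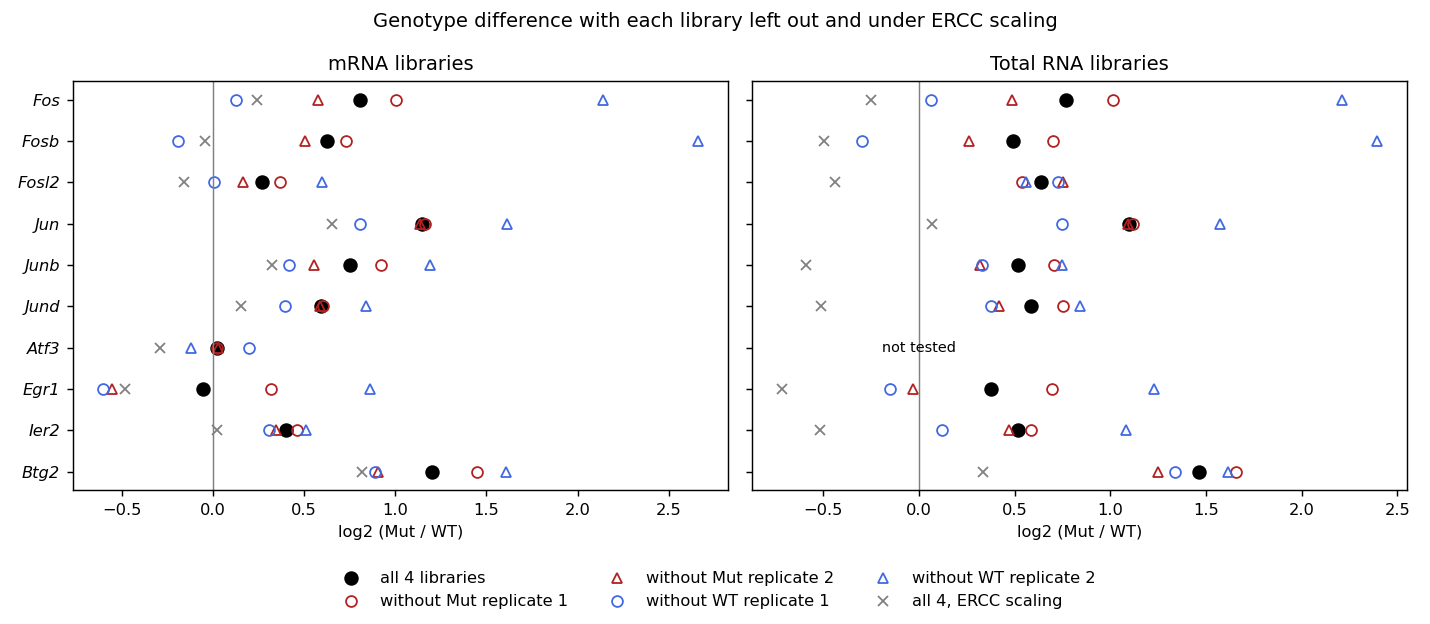
Log2 of Mut-labelled over WT for each gene with all 4 libraries (black), with 1 library left out (red for a Mut-labelled, blue for a WT library, circle for replicate 1, triangle for replicate 2) and under ERCC scaling (grey crosses). Leaving out WT replicate 2 moved Fos and Fosb above 2 in both panels, and leaving out WT replicate 1 moved Fosb below 0.

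Several directions depended on the scaling. ERCC counts were 0.891 and 0.381% of gene counts in Mut-labelled replicates 1 and 2, against 0.651 and 0.313% in WT replicates 1 and 2 of the mRNA libraries, so the replicates of 1 group differed more than the groups. In total RNA the shares were 0.772 and 1.36% in Mut-labelled and 0.414 and 0.564% in WT libraries. ERCC scaling moved the median log2 fold change of all genes to -0.38 in mRNA and -1.10 in total RNA libraries. The median of the tested genes named here moved to 0.09 and -0.49, so it stayed above that of all genes. Under it 16 genes were called higher and 154 lower in mRNA libraries, against 300 and 324 under TMM, and 13 and 360 in total RNA libraries, against 268 and 177. None of the 10 genes was called under ERCC scaling in either kind. Their largest values were those of Btg2 (0.82) and Jun (0.65) in mRNA libraries, with edgeR adjusted p = 0.999 each.

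The genotype difference did not depend detectably on the kind of library. The difference in total RNA minus that in mRNA libraries ranged from -0.18 (Junb) to 0.92 (Atf3) on the log2 scale, with an edgeR adjusted p of 1 for all 10 genes. It was positive for 7 of 10, but for 1 of 10 under ERCC scaling and for 2 to 10 of 10 with 1 library left out. The median of the 10 was 0.10, next to 0.04 over all genes, but -0.48 under ERCC scaling (all genes -0.73) and -0.38 to 0.59 with 1 library left out. Of 17416 genes tested, edgeR called 0%, with 687 (3.94%) at an unadjusted p under 0.05 and 0 of the 10 genes among them. DESeq2 called 18 of the 11338 genes to which it gave an adjusted p (0.159%). With the sample name shared by both kinds as a block, 111 genes were called, and 0 of the 10. For Jun the difference was -0.01 (SE 0.39) and for Btg2 0.31 (SE 0.39). Differences well above the size of such errors could also go unseen, since Hes1 at -1.75 (SE 0.44) did not pass.

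Between the kinds of library, 5 of the 10 genes had a higher share of counts in total RNA than in mRNA libraries, Atf3, Jund, Ier2, Btg2 and Fosl2, against 15.1% of genes called (7.49% higher and 7.65% lower). At an unadjusted p under 0.05 the same 5 of 10 passed, against 31.2% of all genes. The median of the 10 was 0.50, next to -0.10 over all genes. Of all called genes 1304 were higher and 1332 lower, and with the RLE scaling 1461 and 751, under which the same 5 were called. On 1 scaling for all 8 libraries, Jund averaged 469 ± 137 CPM in total RNA and 250 ± 63.4 CPM in mRNA libraries (SD, n = 4 each), and all 4 total RNA libraries lay above all 4 mRNA libraries (log2 fold change 0.91, SE 0.14, edgeR adjusted p = 0.00269). Atf3, at 9.56 ± 4.61 CPM in total RNA and 2.23 ± 0.21 CPM in mRNA libraries (SD, n = 4 each), did the same (2.03, SE 0.37, edgeR adjusted p = 0.00564), on 5 to 18 counts per total RNA library. Such an order of all 4 above all 4 held for 2 of the 10 genes and for 8.67% of all genes.

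Ier2 averaged 371 ± 115 CPM in total RNA and 232 ± 39.7 CPM in mRNA libraries (SD, n = 4 each), higher in 4 of 4 samples (0.66, edgeR adjusted p = 0.0263). Btg2 averaged 124 ± 72.2 and 76.5 ± 39.5 CPM in total RNA and mRNA libraries (SD, n = 4 each; 0.64, edgeR adjusted p = 0.0495). Fosl2 averaged 62.7 ± 17.7 and 42.1 ± 8.12 CPM in total RNA and mRNA libraries (SD, n = 4 each; 0.54, edgeR adjusted p = 0.0474). Jund and Atf3 were called in all alternatives tried, whereas Ier2, Btg2 and Fosl2 were lost in 3, 6 and 6 of the 8 fits that left out 1 library. With the sample name as a block, Fos and Fosb were called too: Fos lower in total RNA (log2 fold change -0.30, edgeR adjusted p = 0.00122, lower in 4 of 4 samples) and Fosb higher (0.48, 5.2e-07, higher in 4 of 4 samples). Jun and Junb lay at 0.07 (SE 0.20) and 0.11 (SE 0.18). The 2 kinds differ in polyA selection, depth and rRNA content, and which of these moved with a gene was not tested.

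Of 10 other AP-1 family genes tested in mRNA libraries, 0 were called by edgeR, and 0 had an unadjusted p under 0.05, against 3.64 and 15.7% of all genes. The list held 13 symbols and had a median log2 fold change of -0.03. The 2 most abundant, Mafg and Mafk, which encode small MAF proteins, had log2 fold changes of -0.04 and -0.15, and Jdp2, a JUN partner, 0.28 (edgeR adjusted p = 0.952, 0.773 and 0.554). The upstream kinases and factors likewise had 0 of 24 called by edgeR (0 at an unadjusted p under 0.05; median 0.05). Mapk14, the p38 kinase gene, stood at 0.08 and Rps6ka1, a kinase gene below ERK, at 0.28. Mapk8, the JNK1 gene whose kinase phosphorylates JUN, stood at 0.40, and Srf and its cofactor gene Mrtfb at -0.01 and -0.14.

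Other immediate early transcription factors had 0 of 18 called by edgeR in mRNA libraries (3 at an unadjusted p under 0.05, against 15.7% of all genes; median 0.09). In total RNA libraries 13 of the 18 were tested and 0 called, against 4.22% of all genes. Their median there was -0.23, with 9 log2 fold changes negative and 4 positive. Myc had 360 and 501 CPM in Mut-labelled and 496 and 524 CPM in WT mRNA libraries (log2 fold change -0.25, edgeR adjusted p = 0.685). Of 30 other immediate early proteins, phosphatases and RNA decay factors, 3 rose in mRNA libraries and 0 fell, against 1.75% of all genes called higher and 1.89% lower, with a median of 0.34. Gadd45g, a stress sensor gene, had 34.2 and 29.1 CPM in Mut-labelled and 7.93 and 7.25 CPM in WT libraries (log2 fold change 2.06, SE 0.21, edgeR adjusted p = 0.0102). Rhob, an immediate early small GTPase gene, had 390 and 397 CPM in Mut-labelled and 118 and 169 CPM in WT libraries (1.46, SE 0.20, edgeR adjusted p = 0.0233). Btg1, the nearest relative of Btg2, had 134 and 151 CPM in Mut-labelled and 73.9 and 82.5 CPM in WT libraries (0.86, SE 0.14, edgeR adjusted p = 0.0335). The groups stood clear of each other for all 3. Gadd45g and Rhob were called without any 1 of the 4 libraries, while Btg1 was lost without Mut-labelled replicate 2, WT replicate 1 or WT replicate 2 (edgeR adjusted p = 0.0623, 0.157 and 0.0503). Under ERCC scaling all 3 were positive and none was called (edgeR adjusted p = 0.999 each).

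In the total RNA libraries the same list of 30 also had 3 called higher and 0 lower by edgeR, namely Rhob (1.13, edgeR adjusted p = 5.1e-04), Tnfaip3 (1.24, 0.00218) and Btg1 (0.64, 0.0489), against 2.54% of all genes called higher and 1.68% lower. The median log2 fold change of the 30 was 0.06 there, with 17 positive and 13 negative. Under ERCC scaling Rhob and Tnfaip3 were at 0.03 and 0.12, and Btg1 turned to -0.51, none of them called. Tnfaip3, which encodes an inhibitor of NF-kB signalling, had 88.4 and 103 CPM in Mut-labelled and 39.9 and 41.2 CPM in WT libraries. In mRNA libraries it did not pass (log2 fold change 0.67, edgeR adjusted p = 0.284). Gadd45g, called in mRNA libraries, overlapped between the groups in total RNA libraries, on 4 to 26 counts per library. It did not pass in total RNA libraries (log2 fold change 0.99, edgeR adjusted p = 0.416). Btg1 lost its call there without Mut-labelled replicate 2 (edgeR adjusted p = 0.497), without WT replicate 2 (0.145) or under RLE scaling (0.0524), and DESeq2 did not call it (0.382). Zfp36, the decay factor gene for AU-rich transcripts, had 520 and 730 CPM in Mut-labelled and 179 and 479 CPM in WT mRNA libraries. Its WT libraries were 2.67-fold apart, the lower being replicate 1 as for Fos, and it did not pass (log2 fold change 0.93, edgeR adjusted p = 0.436). Zfp36l2 was the most abundant of that list at 2266 ± 473 CPM in Mut-labelled and 2167 ± 347 CPM in WT mRNA libraries (SD, n = 2 each; 0.06). Dusp5, an ERK phosphatase gene, had the lowest log2 fold change of the list in mRNA libraries (-0.90, edgeR adjusted p = 0.0922). Its level was 12.2 ± 1.53 CPM in Mut-labelled and 22.8 ± 0.32 CPM in WT mRNA libraries (SD, n = 2 each).

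The median of the 10 genes, centred over the 4 mRNA libraries, was 0.25 and 0.52 in Mut-labelled replicates 1 and 2 and -0.76 and -0.05 in WT replicates 1 and 2 on the log2 scale. Junb lay closest to it (root mean square distance 0.04) and Fosb farthest (0.78). Over these 4 libraries the 5 other genes of at least 10 CPM nearest to that median, of 10175, were Fam160a2 (0.09), Afdn (0.10), Tent5a (0.10), Tspoap1 (0.10) and Pik3c2a (0.10). Afdn, for example, had 107 and 126 CPM in Mut-labelled and 55.0 and 75.0 CPM in WT libraries. With 4 libraries many genes share such an order, and none of the 5 was called.

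Marker sums of some other cell types differed between the genotype labels without overlap, and others overlapped. The summed level of 13 late neutrophil genes was 579 and 180 CPM in Mut-labelled replicates 1 and 2, against 44.7 and 54.9 CPM in WT mRNA libraries. Of these, 12 were tested in mRNA libraries, all with positive log2 fold changes, and 2 were called higher. Over all genes 1.75% were called higher and 1.89% lower in mRNA libraries, which also applies to the calls below. In total RNA libraries 6 were tested and all 6 were called higher (2.54% of all genes). These 6 had 12 to 54 counts per Mut-labelled and 0 to 7 counts per WT total RNA library. They thus passed the filter on low counts through the Mut-labelled libraries alone, which favoured this direction in advance. Genes with few counts in both groups were not tested. The sum of 8 megakaryocyte genes was 2207 and 2018 CPM in Mut-labelled and 934 and 855 CPM in WT libraries, but its members were mixed. Itga2b, with 1345 and 1344 CPM in Mut-labelled and 337 and 318 CPM in WT libraries, Gp5 and Treml1 were called higher, and Vwf, with 58.7 and 40.2 CPM in Mut-labelled and 122 and 123 CPM in WT libraries, was called lower. The sum of 6 mast cell and basophil genes was 673 and 814 CPM in Mut-labelled and 289 and 216 CPM in WT libraries, with 3 called higher and 3 called lower. Cpa3, a mast cell protease gene, had 455 and 514 CPM in Mut-labelled and 28.7 and 19.4 CPM in WT libraries, and Il1rl1 and Hdc were called higher with it. Prss34, a basophil protease gene, had 1 count over both Mut-labelled mRNA libraries, against 68.9 and 44.3 CPM in WT mRNA libraries, and Mcpt8 and Prg2 were called lower with it. The sum of 8 erythroid genes was 345 and 244 CPM in Mut-labelled and 1152 and 901 CPM in WT libraries. Monocyte and macrophage genes (10) summed to 330 and 221 CPM in Mut-labelled and 227 and 207 CPM in WT libraries, T and NK cell genes (8) to 35.7 and 31.4 against 93.6 and 81.6 CPM, and stromal and endothelial genes (8) to 244 and 169 against 263 and 219 CPM. The monocyte and stromal sums thus overlapped between the groups, and the T and NK cell sums did not. Members of these lists were mixed. Of 6 T and NK cell genes tested, 3 had both Mut-labelled mRNA libraries above both WT libraries and 3 below, with 2 called lower. For the monocyte list these were 2 and 5 of 10, with 1 called lower. For the stromal list they were 1 and 2 of 8, with 1 called higher and 1 lower. Over all genes 21.4% lay above and 23.1% below. The 7 B and plasma cell genes summed to 391 and 2072 CPM in Mut-labelled replicates 1 and 2, against 827 and 9386 CPM in WT replicates 1 and 2, and thus moved with the replicate number as Fos and Egr1 did. No marker was at 0 in all 4 mRNA libraries, and the lowest were Ms4a1 with 5 and Cd8a with 13 counts over the 4. The part of these cells in the values of the 10 genes was not tested. In such bulk samples fewer cells of a type and less RNA per cell cannot be told apart.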

How the data were processed

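Each of 2 Mut-labelled and 2 WT samples gave 1 library of each kind. The authors deposited raw counts per gene, whole numbers that are not normalised. Per the submitters' processing notes, TopHat, featureCounts and edgeR were used, with build mm9, without version or role. Rules on annotation, strand and multiply mapped reads: not given in the sources used here. Of 38086 entries, 37991 were genes, 92 ERCC transcripts and 3 rRNA species, and the last 2 kinds were left out of library totals and tests. GENCODE M21 gave symbols (32919 matched), exon lengths and overlaps on GRCm38, and RefSeq the promoters.

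The comparisons used edgeR 4.0.16 in R 4.3.3 (filterByExpr, TMM, quasi-likelihood test, two-sided, Benjamini-Hochberg over all genes tested, called under an adjusted p of 0.05), with no block. Log2 fold changes are Mut-labelled over WT, or total RNA over mRNA. The shares of genes as far apart between replicates, and the centred profiles, used an offset of 0.5 CPM. DESeq2 1.42.0, RLE and ERCC scaling, no filter, a replicate block, thinned counts and each library left out were alternatives. The fit was tested on simulated data. The genes, gene lists and tests were chosen with earlier results of these data known.

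Named beside the 10 genes were, from each other list, the genes called in either kind of library, the 2 most abundant, and the largest rise and fall among genes of at least 10 CPM. The labels do not give separate animals for the samples, and p-values then reflect the spread of these samples alone, possibly technical. Replicates of a group differed beyond sampling noise (chi-square per degree of freedom 60.9 and 65.1 in Mut-labelled and WT mRNA libraries, 2.60 and 3.13 in total RNA libraries). Libraries of both kinds with the same sample name deviated together across genes (correlation 0.455 in Mut-labelled and 0.396 in WT samples), and the shared name comes from the labels. Depth allowed 17128 genes to be tested in mRNA and 10546 in total RNA libraries. The difference between the replicates of a group was above its Poisson counting error for 34 of 38 pairs of gene and group, and below it for Fosl2 in both groups of total RNA, Jun in Mut-labelled total RNA and Atf3 in Mut-labelled mRNA libraries.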

Additional observations from a re-analysis of the deposited data

Results flagged for a closer look

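Hes1, a Notch target gene on the list of immediate early transcription factors, moved in opposite directions in the 2 kinds of library. It had 15.6 and 11.5 CPM in Mut-labelled mRNA libraries and 6.85 and 6.62 CPM in the WT mRNA libraries (log2 fold change 1.01, edgeR adjusted p = 0.127), and 16.2 and 15.9 CPM in the Mut-labelled total RNA libraries and 30.2 and 25.1 CPM in the WT total RNA libraries (-0.78, edgeR adjusted p = 0.327). The difference between both contrasts was -1.75 on the log2 scale (SE 0.44) and did not pass the test over all genes (edgeR adjusted p = 1, unadjusted p = 0.00238). It rested on 15 to 31 counts per total RNA library. Groups of 2 samples are too small for a test of single outlying libraries.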

How the results depend on the processing

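The differences between genotypes rest on few libraries and on the scaling. The 624 calls in mRNA libraries became 1615 with DESeq2, 2870 with the replicate block, 170 under ERCC scaling and 403 with counts thinned to the depth of the shallowest total RNA library, and lay between 602 and 815 with 1 library left out. Of the 10 genes, 0 were called, but 3 with DESeq2, 6 with the block (Btg2, Fos, Ier2, Jun, Junb and Jund), 2 (Jun and Btg2) with thinned counts and 0 to 5 with 1 library left out. The 445 calls in total RNA libraries became 724 without a filter, 203 with DESeq2 and 870 with the block, and of the 10 genes 2 were called, but 6 without a filter, 1 with DESeq2, 8 with the block, 0 under ERCC scaling and 2 to 8 with 1 library left out. For the dependence on the kind of library, 0 calls became 18 with DESeq2, 111 with the block and 0 to 1 with 1 library left out. Between the kinds of library, 2636 calls became 4896 with the block, which called 7 of the 10 genes, and 1019 to 2267 (2 to 6 of the 10 genes) with 1 library left out.

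Signs turned as follows on the log2 scale. Under ERCC scaling in mRNA libraries, Fosb stood at -0.041, Fosl2 at -0.16, Atf3 at -0.29, Jdp2 at -0.11, Zfp36l2 at -0.28, Mapk14 at -0.27 and Rps6ka1 at -0.093. Under ERCC scaling in total RNA libraries, Fos stood at -0.25, Fosb at -0.49, Fosl2 at -0.44, Junb at -0.59, Jund at -0.51, Egr1 at -0.72, Ier2 at -0.51, Btg1 at -0.51 and Gadd45g at -0.10. With thinned counts Jdp2 stood at -0.14, Mafg at 0.0096, Srf at 0.093 and Mrtfb at 0.12. With 1 library left out in mRNA libraries, Egr1 ranged from -0.60 to 0.86, Fosb from -0.19 to 2.66, Atf3 from -0.12 to 0.20, Mafg from -0.21 to 0.11, Mrtfb from -0.35 to 0.040 and Zfp36l2 from -0.16 to 0.26. With 1 left out in total RNA libraries, Egr1 ranged from -0.15 to 1.23 and Fosb from -0.30 to 2.39, and between the kinds Fos from -1.01 to 0.49, Fosb from -0.48 to 1.59, Egr1 from -0.28 to 0.70, Jun from -0.16 to 0.41 and Junb from -0.0081 to 0.43. For the dependence on the kind, ERCC scaling put Fos at -0.49, Fosl2 at -0.27, Jund at -0.66, Egr1 at -0.23, Ier2 at -0.53 and Btg2 at -0.48, RLE scaling put Fos at -0.039 and Jund at -0.0098, and DESeq2 put Fos at -0.041 and Jund at -0.0098. With 1 library left out it ranged for Fos from -1.39 to 1.44, for Fosb from -2.18 to 1.81, for Jun from -0.53 to 0.46, for Junb from -0.69 to 0.088, for Jund from -0.27 to 0.28, for Egr1 from -0.50 to 1.31, for Ier2 from -0.23 to 0.72 and for Btg2 from -0.15 to 0.56. The cause was not tested.

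The replicate number as a block also turned Egr1 in mRNA libraries to 0.054. Same-numbered samples of both groups deviated together across genes (correlation 0.413 in mRNA and 0.235 in total RNA libraries). There are 2 pairs and the labels give no shared batch or day, so whether such samples share more than a number is not known. RLE scaling turned no other sign, and of the calls named here it changed that of Btg1 in total RNA libraries (edgeR adjusted p = 0.0524). At the depth of the total RNA libraries, a simulated log2 fold of 1 was recovered in 51.5% of cases, among genes with a mean above 10 CPM.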
